A study of Rattus norvegicus with 19 samples.

Results

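The 39 genes described here encode the machinery of fatty acid oxidation together with targets and partners of PPAR-alpha, the nuclear receptor that fatty acids activate. They were taken by gene name from the 36174 gene names carried by the non-control probes of the arrays, and fall into 22 mitochondrial, 5 peroxisomal, 9 uptake, activation and storage genes and 3 regulators. The members had 49 probes, and 38 of the 39 had a probe that 5 or more of the 19 arrays showed well above background, as had 24234 of all gene names. Ucp3, an uncoupling protein of muscle and fat, was the exception: its probe was well above background on 1 array, and it was not tested.

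Gene expression was measured in total RNA of the renal cortex, hybridised in 1 colour to an Agilent array for each rat. All animals were male Crl:CD (SD) rats. The 7 DKD+enarodustat rats (DKD is diabetic kidney disease) were injected intravenously with 65 mg/kg of streptozotocin, which kills the beta cells of the pancreas, and then given feed with 0.01% (w/w) of enarodustat, a drug that blocks the HIF prolyl hydroxylases and so keeps hypoxia-inducible factor (HIF) from being broken down. The 7 DKD rats had the same injection and normal feed, and the 5 Sham rats were given vehicle and normal feed. Injection preceded grouping by 7 days, and kidneys were taken 14 days after grouping; of 19 rats injected with streptozotocin 14 were used, and grouping balanced blood glucose and body weight between the diabetic groups. The study asked how diabetes alters energy metabolism in the kidney and whether enarodustat counteracts it.

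Long-chain fatty acids enter mitochondria as carnitine esters and are shortened there by a repeating series of dehydrogenation, hydration, dehydrogenation and thiolysis steps, with electrons passed on through the electron transfer flavoprotein. Peroxisomes shorten fatty acids that mitochondria take poorly. The proximal tubule, which makes up most of the cortex, depends on this oxidation for energy, and PPAR-alpha, with the coactivator PGC-1-alpha, switches many of its genes on during fasting and other states of high fatty acid supply.

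The probes of proximal tubule markers, among them the phosphate transporter Slc34a1 and the endocytic receptors Lrp2 and Cubn, were well above background on every array. The summed signal of 10 such markers, with the array's 75th percentile set to 1, ran from 295 to 379 in DKD+enarodustat, from 317 to 354 in DKD and from 400 to 445 in Sham. In DKD against Sham 6 of these 10 markers fell and 1 rose. Slide position was tied to group: the DKD+enarodustat arrays occupied the second row of their slides, as did DKD replicates 2 and 4, and the other 5 DKD arrays and the Sham arrays occupied the first. The summed signal of adipocyte markers was 11.48 and 14.74 on DKD replicates 2 and 4, 0.85 to 6.21 in DKD+enarodustat, 0.85 to 3.64 on the other 5 DKD arrays and 0.46 to 0.77 in Sham. Because whole cortex was used, fewer cells of a type and less RNA per cell cannot be told apart.

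Levels below are log2 signals relative to the 75th percentile of the array, so that 0 is the signal of that percentile, and differences are log2 differences of these levels with their standard error. Adjusted p-values come from a limma fit over all 24234 genes, and a gene was called where the adjusted p was under 0.05.

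In DKD against Sham most of the members rose. Of 38 tested, 26 rose, 1 fell (Acadm) and 11 did not pass the test, whereas 8.02% of all genes rose and 9.06% fell. Creb3l3 and Fabp1 are counted in the 26 but were above background on 1 and 0 Sham arrays, so that they entered the test through the diabetic arrays; of the 36 members above background on every Sham array 24 rose and 1 fell. The median log2 difference of the members was 0.52 (0.48 over those 36), and that of all genes -0.02. DKD and Sham arrays did not overlap for 16 members, 15 of them higher (Creb3l3 and Fabp1 included) and 1 lower, against 10.7% of all genes. The share that rose was 14 of 21 among mitochondrial, 4 of 5 among peroxisomal and 7 of 9 among uptake and storage genes (Fabp1 included), and 1 of 3 regulators rose (Creb3l3). The median differences of these groups were 0.40, 0.78, 0.96 and 0.35. Without DKD replicates 2 and 4, the arrays rich in adipocyte markers, 22 members rose and none fell. Among the arrays of slide row 1 alone, which held 5 DKD and 5 Sham arrays, 20 rose and 1 fell. All 26 members that rose were also higher in DKD within slide 1 (median 0.65) and within slide 2 (median 0.90). These arrays are part of the fit that picked the 26, so that agreement is no separate support. Over the 38 tested members the median was 0.38 within slide 1 and 0.58 within slide 2, against -0.05 and -0.04 over all genes. There limma called 0 members at the adjusted threshold and 13 (slide 1) and 17 (slide 2) at an unadjusted p under 0.05. The share of all genes called was not counted in any of these subsets of arrays. In the full fit 28.8% of all genes had an unadjusted p under 0.05.

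**Figure D1:**
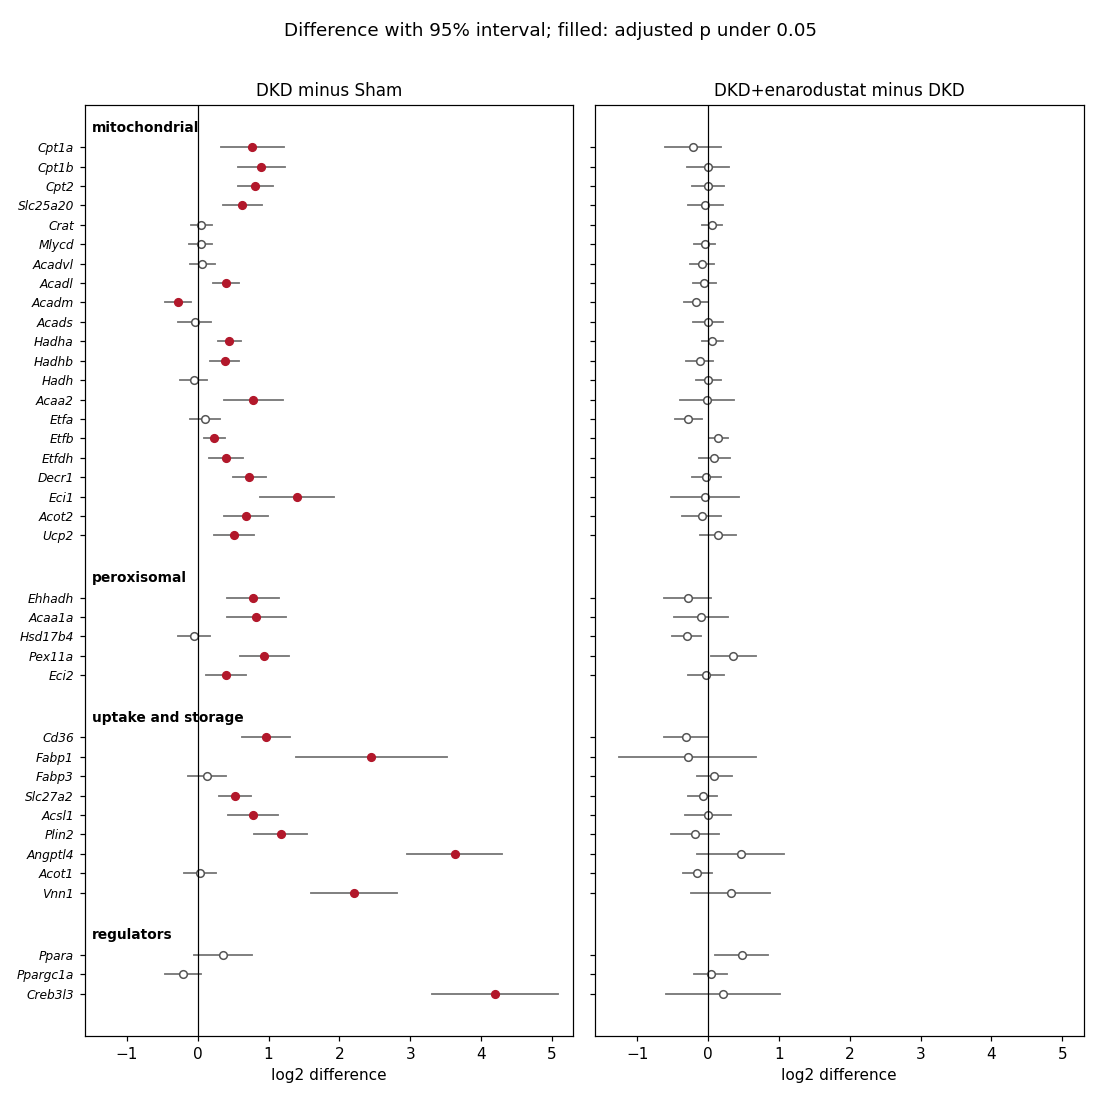
Log2 difference of each of the 38 tested members (points) with its 95% interval (lines), in DKD minus Sham on the left and DKD+enarodustat minus DKD on the right, by group of genes; filled points have an adjusted p under 0.05. In DKD minus Sham 27 points are filled, 26 of them right of 0, and in DKD+enarodustat minus DKD none is filled.

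Of the 6 genes of entry into mitochondria and fuel control, 4 rose in DKD against Sham. Cpt2, the inner-membrane carnitine palmitoyltransferase, had levels of 0.31, 0.66 and 0.80 (lowest, median and highest) in DKD+enarodustat, 0.37, 0.56 and 1.14 in DKD, and -0.43, -0.15, -0.20, -0.06 and -0.15 on the 5 Sham arrays. Every array of either diabetic group lay above every Sham array. Cpt2 rose by 0.81 ± 0.12 in DKD against Sham (1.76-fold, adjusted p = 0.000151 in the limma fit), and differed by -0.00 ± 0.11 between DKD+enarodustat and DKD (95% interval -0.23 to 0.23). The probe lay on chromosome 5 from 129007858 to 129007917 in rn4, the build that the file headers name.

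Cpt1a, the outer-membrane carnitine palmitoyltransferase that sets the rate of entry, ran from -0.01 through a median of 0.36 to 0.99 in DKD+enarodustat and from 0.21 through 0.64 to 1.12 in DKD. Its Sham values were -0.82, 0.42, 0.01, -0.31 and 0.03, so that the groups overlapped. Cpt1a rose by 0.77 ± 0.21 in DKD against Sham (adjusted p = 0.016), a call that was lost without Sham replicate 1, the lowest array (0.60, adjusted p = 0.0539), and within slide row 1 (0.74, adjusted p = 0.0732). In DKD+enarodustat against Sham the difference was 0.56 ± 0.21 (adjusted p = 0.0584, and 0.53 with adjusted p = 0.0456 where the replicate number was a block).

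Cpt1b, the muscle form of that enzyme, rose by 0.90 ± 0.16 in DKD (adjusted p = 0.000667), and Slc25a20, which exchanges acylcarnitine for carnitine across the inner membrane, by 0.63 ± 0.13 (adjusted p = 0.00241). The 2 other genes of this step did not pass the test: Crat, which makes short-chain acylcarnitines, differed by 0.05 ± 0.07, and Mlycd, which removes the malonyl-CoA that inhibits entry, by 0.04 ± 0.08. The 95% intervals of Crat and Mlycd reached no further than 0.20 in either direction.

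Of the 8 enzymes of the oxidation series 4 rose and 1 fell. Hadha and Hadhb, the subunits of the trifunctional protein for long chains, rose by 0.45 ± 0.08 and 0.38 ± 0.10 (adjusted p = 0.000709 and 0.0127 in DKD against Sham). Acadl, the long-chain acyl-CoA dehydrogenase, rose by 0.39 ± 0.09 (adjusted p = 0.00447), and Acaa2, the last thiolase, by 0.78 ± 0.20 (adjusted p = 0.0107, and 0.66 with adjusted p = 0.0618 within slide row 1). Acadvl, Acads and Hadh, the very-long-chain and short-chain dehydrogenases and the short-chain hydroxyacyl-CoA dehydrogenase, differed by 0.06 ± 0.09, -0.05 ± 0.11 and -0.06 ± 0.09 and did not pass the test.

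Acadm, the medium-chain acyl-CoA dehydrogenase, was the member that fell. Its levels were 3.07, 3.47 and 3.68 (lowest, median and highest) in DKD+enarodustat, 3.44, 3.59 and 3.69 in DKD, and 3.89, 3.94, 3.79, 3.87 and 3.76 in Sham. No diabetic array reached the lowest Sham array. The log2 difference of DKD and Sham was -0.28 ± 0.09 (1.21-fold lower, adjusted p = 0.0392), and that of DKD+enarodustat and Sham -0.45 ± 0.09 (adjusted p = 0.00105). The first call was narrow: adjusted p was 0.0533 to 0.0927 without any 1 of DKD replicates 1, 2, 4, 5 and 7 and Sham replicates 1 to 4, and 0.0663 with arrays centred on their median.

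Among the electron carriers, Etfdh, which passes electrons from the flavoprotein to ubiquinone, rose by 0.40 ± 0.11 (adjusted p = 0.0202 in DKD against Sham, but 0.0709 without Sham replicate 3, 0.0641 without Sham replicate 4 and 0.092 within slide row 1). Etfb, the beta subunit of the flavoprotein, rose by 0.23 ± 0.07 (adjusted p = 0.0281), which did not hold with the replicate number as a block (0.21, adjusted p = 0.083), with normexp and quantile normalisation (0.10, adjusted p = 0.304), in the authors' value table (0.06, adjusted p = 0.438) or without any 1 of DKD replicates 4 and 7 and Sham replicates 1, 3 and 5 (adjusted p 0.0529 to 0.0756). Etfa, the alpha subunit, did not pass the test and is described with the comparison of the diabetic groups.

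All 3 auxiliary enzymes rose. Decr1, the dienoyl-CoA reductase needed for polyunsaturated fatty acids, had levels of 3.21, 3.65 and 3.80 (lowest, median and highest) in DKD+enarodustat, 3.46, 3.62 and 3.80 in DKD, and 2.76, 3.32, 2.77, 2.85 and 2.75 in Sham. Every DKD array exceeded every Sham array, while the lowest DKD+enarodustat array lay below Sham replicate 2, the highest. The rise was 0.73 ± 0.11 in DKD against Sham (1.66-fold, adjusted p = 0.000158). Eci1, the isomerase for unsaturated chains, rose by 1.40 ± 0.25 (2.65-fold, adjusted p = 0.000789), the largest rise among the mitochondrial members, and Acot2, a mitochondrial thioesterase that releases free fatty acid, by 0.68 ± 0.15 (adjusted p = 0.00324). Ucp2, an uncoupling protein of the inner membrane, rose by 0.51 ± 0.13 (adjusted p = 0.0137), a call lost within slide row 1 (0.42, adjusted p = 0.0618).

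**Figure D2:**
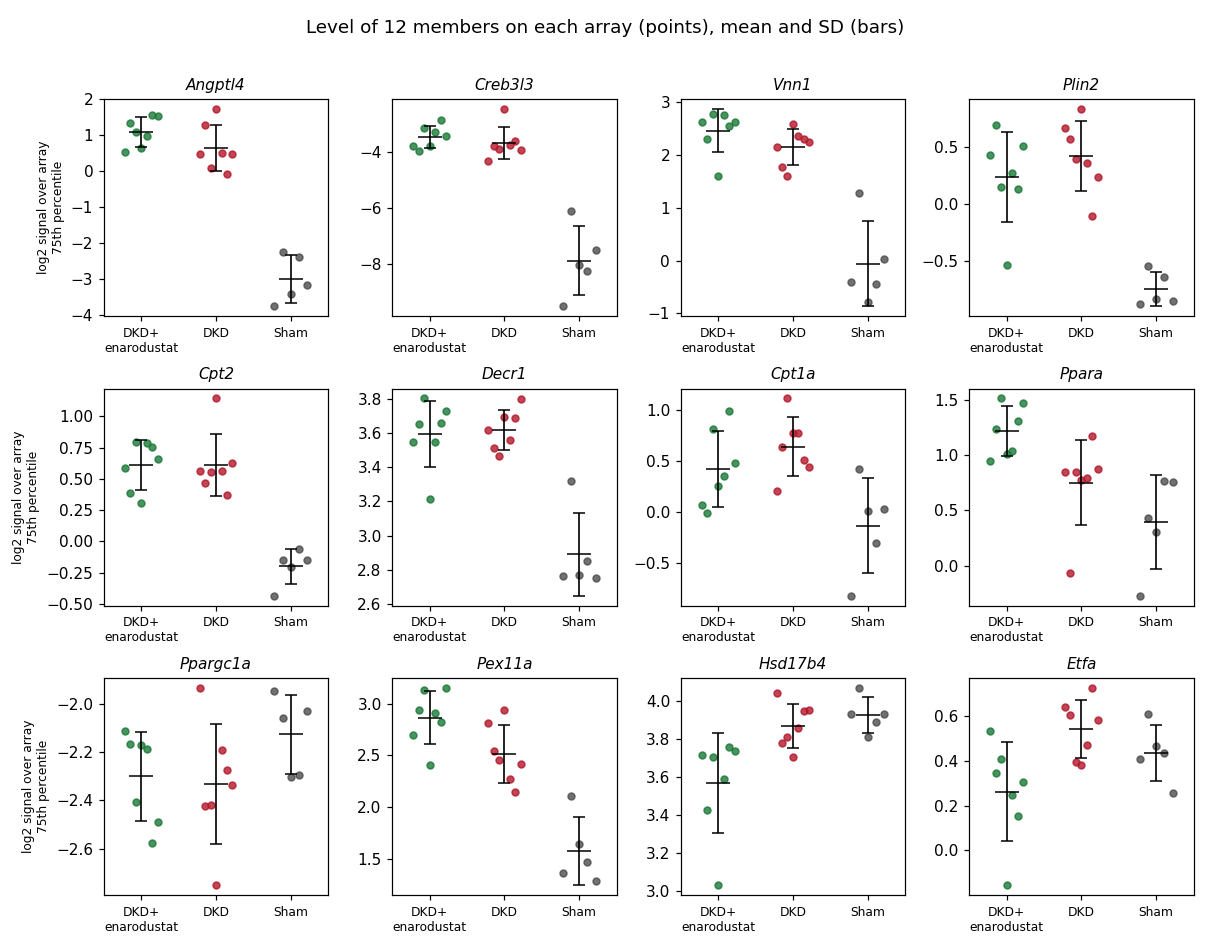
Levels of 12 members on each array (points, log2 signal over the array's 75th percentile; each panel has its own axis), with the group mean and SD (bars), in DKD+enarodustat, DKD and Sham from left to right. For Angptl4, Creb3l3, Vnn1, Plin2 and Cpt2 every diabetic array lies above every Sham array, while for Ppargc1a the 3 groups overlap.

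Of the 5 peroxisomal members 4 rose in DKD against Sham. Pex11a, a membrane protein that drives peroxisome division, had levels of 2.40, 2.90 and 3.15 (lowest, median and highest) in DKD+enarodustat, 2.14, 2.46 and 2.94 in DKD, and 1.36, 2.11, 1.65, 1.47 and 1.28 in Sham. Every array of both diabetic groups lay above every Sham array. Pex11a rose by 0.94 ± 0.16 in DKD against Sham (adjusted p = 0.000668). Ehhadh, the bifunctional enzyme of the inducible peroxisomal pathway, rose by 0.78 ± 0.18 (adjusted p = 0.00496), and Acaa1a, a peroxisomal thiolase, by 0.83 ± 0.20 (adjusted p = 0.00725).

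Eci2, a peroxisomal isomerase, was at the edge of the threshold at 0.40 ± 0.13 (adjusted p = 0.0488, and 0.38 with adjusted p = 0.0556 where the replicate number was a block). Its adjusted p was 0.0512 to 0.129 without any 1 of DKD replicates 1 to 4, 6 and 7, DKD+enarodustat replicates 1, 2, 5, 6 and 7 and Sham replicates 1, 3, 4 and 5, and 0.0793 to 0.0846 with normexp, quantile or median scaling or with no filter on dim probes. Hsd17b4, the bifunctional enzyme for branched and very long chains, differed by -0.06 ± 0.11 in DKD against Sham and did not pass the test.

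Of the 9 genes of uptake, activation and storage 7 rose in DKD against Sham. Angptl4, a secreted inhibitor of lipoprotein lipase, had levels of 0.54, 1.08 and 1.56 (lowest, median and highest) in DKD+enarodustat, -0.09, 0.49 and 1.73 in DKD, and -3.75, -2.23, -3.41, -2.38 and -3.16 in Sham. Diabetic and Sham arrays lay far apart. Angptl4 rose by 3.63 ± 0.32 in DKD against Sham (12.3-fold, adjusted p = 8.25e-07) and by 4.08 ± 0.32 in DKD+enarodustat against Sham (adjusted p = 1.37e-07). Among DKD arrays it was highest on replicates 2 and 4 (1.29 and 1.73), the arrays rich in adipocyte markers. Between DKD+enarodustat and DKD it differed by 0.46 ± 0.29 (adjusted p = 0.552). Its probe lay on chromosome 7 from 16261624 to 16261683 in rn4.

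Vnn1, a pantetheinase known as a PPAR-alpha target, had levels of 1.61, 2.62 and 2.78 (lowest, median and highest) in DKD+enarodustat, 1.60, 2.25 and 2.58 in DKD, and -0.41, 1.29, -0.78, -0.43 and 0.03 in Sham. Sham replicate 2 stood above the other Sham arrays and still below every diabetic array. Vnn1 rose by 2.21 ± 0.29 in DKD against Sham (4.62-fold, adjusted p = 5.19e-05).

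Plin2, which coats lipid droplets, had levels of -0.53, 0.27 and 0.69 (lowest, median and highest) in DKD+enarodustat, -0.11, 0.39 and 0.83 in DKD, and -0.87, -0.54, -0.84, -0.64 and -0.85 in Sham. No Sham array reached a diabetic one, although the lowest DKD+enarodustat array, replicate 4, was close to the highest Sham array. Plin2 rose by 1.17 ± 0.18 in DKD against Sham (2.25-fold, adjusted p = 0.000209).

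Fabp1, the liver-type fatty acid-binding protein, was not well above background on any Sham array, and was on 4 of 7 DKD+enarodustat and 7 of 7 DKD arrays. Measured means were -6.31 ± 1.196 in DKD+enarodustat, -6.01 ± 0.57 in DKD and -8.46 ± 0.82 in Sham (SD, n = 7, 7 and 5). Each Sham signal was set to the lowest signal well above background on its array, or the probe's own where higher. Against that floor Fabp1 was 2.78-fold higher in DKD+enarodustat and 3.401-fold higher in DKD. Without the floor, the log2 differences in the limma fit were 2.16 (adjusted p = 0.00429) and 2.45 (adjusted p = 0.00263). The size of the difference is not settled. Since Fabp1 passed the filter on dim probes through the diabetic arrays alone, these p-values lend no support of their own. With normexp and quantile normalisation, which draws dim signals together, the call in DKD+enarodustat against Sham was lost (0.20, adjusted p = 0.0532), and the log2 difference of DKD and Sham was 0.26 (adjusted p = 0.019). A term for slide row also ended that first call (1.48, adjusted p = 0.43).

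Cd36, the fatty acid translocase, rose by 0.96 ± 0.16 in DKD against Sham (adjusted p = 0.000541) and a second probe differed by 0.73 without passing the test. Its level was highest on DKD replicates 2 and 4 (1.83 and 1.78), the arrays rich in adipocyte markers. The other DKD arrays ran from 0.87 to 1.31 and the Sham arrays from 0.07 to 0.59. Acsl1, which activates long-chain fatty acids, rose by 0.78 ± 0.17 (adjusted p = 0.00357), and Slc27a2, a transporter and very-long-chain acyl-CoA synthetase, by 0.52 ± 0.11 (adjusted p = 0.00251, and 0.32 in the authors' value table). Fabp3, the heart-type binding protein, and Acot1, a cytosolic thioesterase, differed by 0.13 ± 0.13 and 0.03 ± 0.11 and did not pass the test. Cd36 and Plin2 are also made by fat cells, and 4 of 8 tested adipocyte markers (Cidea, Lep, Fabp4 and Cfd, with Lep above background on no Sham array) rose in DKD against Sham, Fabp4 by 3.58 ± 0.91 (adjusted p = 0.011); the part of the adipocyte signal in the members' differences was not tested beyond the values without replicates 2 and 4 given above.

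Acot1 and Acot2 are close relatives that lie near each other on chromosome 6, and the sequences of their probes are compared here. The Acot1 probe (108049344 to 108049403, rn4) and the coding probe of Acot2 (108023141 to 108023200) read, 5′ to 3′:
A_44_P1084096, Acot1: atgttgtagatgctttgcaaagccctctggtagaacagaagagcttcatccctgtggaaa
A_64_P103901, Acot2: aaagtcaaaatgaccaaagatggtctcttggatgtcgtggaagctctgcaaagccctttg
In the best alignment without gaps they matched at 24 of 29 bases, with a longest shared run of 11 bases. The Acot2 probe that stood for the gene shared no run over 5 bases with the Acot1 probe. Probes were compared only with each other, so whether either binds the transcript of the other gene was not tested.

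Of the 3 regulators 1 rose in DKD against Sham. Creb3l3, a transcription factor of the endoplasmic reticulum membrane that works with PPAR-alpha in liver, had levels of -3.97, -3.44 and -2.86 (lowest, median and highest) in DKD+enarodustat, -4.32, -3.79 and -2.46 in DKD, and -9.51, -6.11, -8.02, -8.23 and -7.48 in Sham. The groups lay apart, but only 1 of 5 Sham arrays was above background. The fitted log2 difference of DKD and Sham was 4.20 ± 0.42 (adjusted p = 3.28e-06), but it is set against Sham signals that were mostly at background and its size is not settled. It was 3.78 with each Sham signal raised to the lowest signal well above background on its array, and 1.08 with normexp and quantile normalisation (adjusted p = 6.63e-05). Since Creb3l3 passed the filter on dim probes through the diabetic arrays, these p-values lend no support of their own. Creb3l3 and Fabp1 are known best from liver; the summed signal of 4 liver markers ran from 0.012 to 0.033 in DKD+enarodustat, 0.0099 to 0.040 in DKD and 0.0046 to 0.011 in Sham, and 2 of them were tested, Alb and Serpina1. In DKD+enarodustat against Sham Serpina1 rose by 1.71 ± 0.47 (adjusted p = 0.0111), while Alb differed by 1.40 ± 0.62 without passing the test, and in DKD against Sham neither passed it (differences of 1.16 and 1.04). Serpina1 was above background on 1 Sham array and Alb on none. The part of that signal in the 2 genes' differences was not tested.

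Ppara, the receptor itself, had levels of 0.95, 1.24 and 1.52 (lowest, median and highest) in DKD+enarodustat, -0.07, 0.85 and 1.18 in DKD, and -0.27, 0.43, 0.30, 0.77 and 0.76 in Sham. Every DKD+enarodustat array lay above every Sham array, and DKD overlapped both. Its difference was 0.35 ± 0.20 in DKD against Sham (adjusted p = 0.258), and it rose by 0.82 ± 0.20 in DKD+enarodustat against Sham (adjusted p = 0.00475). The other 2 Ppara probes differed by 0.48 and 0.36 in DKD against Sham.

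Ppargc1a, which encodes the coactivator PGC-1-alpha, had levels of -2.58, -2.19 and -2.11 (lowest, median and highest) in DKD+enarodustat, -2.75, -2.34 and -1.93 in DKD, and -1.95, -2.06, -2.30, -2.30 and -2.03 in Sham. All 3 groups overlapped. The difference was -0.21 ± 0.12 in DKD against Sham (adjusted p = 0.285) and -0.17 ± 0.12 in DKD+enarodustat against Sham (adjusted p = 0.33).

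PPAR-alpha binds, with its partner RXR, to a direct repeat of AGGTCA with a spacer of 1 base, where that base may be any. Promoter windows from 250 bases before to 50 bases after the gene start were available for 34 of the 39 members (35 windows, RefSeq, build GRCr8). The repeat with up to 2 mismatches in its 12 fixed letters, on either strand, was found in 8 of 35 windows (22.9%) and in 1263 of 33469 windows of all genes (3.77%). With up to 1 mismatch it was in 2 windows, of Fabp1 and Acadvl (5.71%, against 0.439% of all). The other 6 members were Slc27a2, Creb3l3, Slc25a20, Crat, Etfa and Ucp3. Fabp1, Slc27a2, Creb3l3 and Slc25a20 rose in DKD against Sham, Crat, Acadvl and Etfa did not pass the test and Ucp3 was not tested; a match is a description of the letters only.

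The 250 bases before the start are printed for 3 genes that rose and carry a match, and for Acadvl, which carries a match with 1 mismatch, as Fabp1 does, and did not pass the test. They lie at chr4:104749090-104749339 (plus strand), chr3:134257851-134258100 (plus strand), chr7:9273070-9273319 (plus strand) and chr10:55236706-55236955 (minus strand) in GRCr8, read 5′ to 3′ towards the gene, with the match in capitals:
Fabp1: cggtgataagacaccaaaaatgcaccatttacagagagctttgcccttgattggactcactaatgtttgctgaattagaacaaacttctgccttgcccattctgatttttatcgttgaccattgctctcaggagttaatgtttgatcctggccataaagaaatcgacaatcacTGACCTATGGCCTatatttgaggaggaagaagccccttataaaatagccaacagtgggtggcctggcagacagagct
Slc27a2: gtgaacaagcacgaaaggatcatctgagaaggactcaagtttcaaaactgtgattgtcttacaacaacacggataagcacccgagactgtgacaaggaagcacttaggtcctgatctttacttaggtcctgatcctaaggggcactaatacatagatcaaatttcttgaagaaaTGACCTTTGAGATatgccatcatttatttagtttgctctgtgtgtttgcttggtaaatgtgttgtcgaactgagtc
Creb3l3: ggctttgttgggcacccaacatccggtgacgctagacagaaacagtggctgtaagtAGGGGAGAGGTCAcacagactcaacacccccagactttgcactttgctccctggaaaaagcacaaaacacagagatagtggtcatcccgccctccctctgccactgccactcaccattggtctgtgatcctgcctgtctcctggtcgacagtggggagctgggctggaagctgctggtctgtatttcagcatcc
Acadvl: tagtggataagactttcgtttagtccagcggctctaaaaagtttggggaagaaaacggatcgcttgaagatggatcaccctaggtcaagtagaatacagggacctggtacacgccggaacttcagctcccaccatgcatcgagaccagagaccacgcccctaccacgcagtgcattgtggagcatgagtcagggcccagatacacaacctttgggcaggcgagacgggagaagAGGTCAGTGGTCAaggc
The matches began 77, 76, 194 and 17 bases before the start of Fabp1, Slc27a2, Creb3l3 and Acadvl. The core of the HIF-binding element, ACGTG or GCGTG on either strand, was in 21 of 35 windows of members (60%) and in 41.6% of all windows.

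Whether the drug moved these genes in diabetic kidneys was read from DKD+enarodustat against DKD. Of 38 members 0 passed the adjusted threshold in the limma fit, where 2.00% of all genes were called (1.07% higher and 0.933% lower). At an unadjusted threshold 7 members had a p under 0.05 (3 higher, 4 lower), as did 13.7% of all genes, and no member's groups were apart, against 1.25% of all genes. The median log2 difference was -0.03, with a range of -0.32 to 0.47, against -0.02 over all genes. The half-width of the 95% interval had a median of 0.24 over the members, from 0.13 for the tightest to 0.97 for Fabp1. The authors' value table, at the same threshold, called 4 members (Acadm, Etfa and Hsd17b4 lower, Ppara higher) and normexp with quantile normalisation called 1 (Hsd17b4). That table allowed a test of 36 members among 18355 genes. The share of all genes called was not counted under either alternative, so these counts have no background beside them. This comparison shares its DKD arrays with that of DKD and Sham. It is also largely tied to slide row, since all DKD+enarodustat arrays but only 2 DKD arrays lay in row 2. On average 64.9% of probes were well above background in row 1 and 58.3% in row 2. Within row 2 alone 0 members were called, with a median difference of -0.12 against 0.02 over all genes. The DKD arrays there were only replicates 2 and 4, those rich in adipocyte markers, which limits this test. No share of all genes called was counted within row 2.

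**Figure D3:**
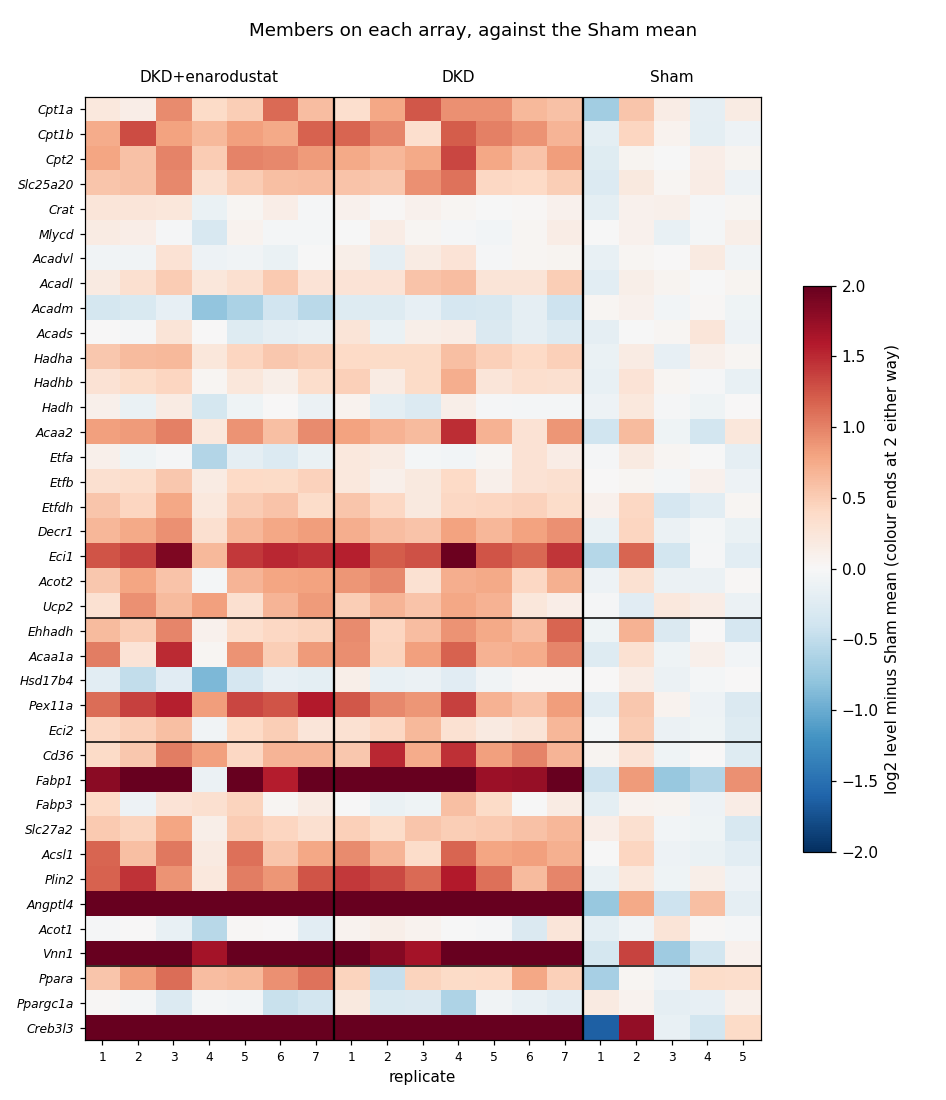
Level of each of the 38 tested members on each array minus the Sham mean of that member (log2, colour ends at 2 in either direction), with DKD+enarodustat, DKD and Sham from left to right and mitochondrial, peroxisomal, uptake and storage genes and regulators from top to bottom. Most rows are red across both diabetic groups, Acadm is blue across both, and DKD+enarodustat replicate 4 is the palest diabetic column.

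Hsd17b4 had the smallest adjusted p of the members in this comparison. Its levels were 3.03, 3.71 and 3.76 (lowest, median and highest) in DKD+enarodustat, 3.71, 3.86 and 4.04 in DKD, and 3.93, 4.07, 3.81, 3.89 and 3.93 in Sham. DKD+enarodustat overlapped DKD and lay below every Sham array. The difference from DKD was -0.30 ± 0.10 (adjusted p = 0.133), -0.36 with normexp and quantile normalisation (adjusted p = 0.0325) and -0.34 in the authors' value table (adjusted p = 0.00135).

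Etfa had levels of -0.16, 0.31 and 0.53 (lowest, median and highest) in DKD+enarodustat, 0.38, 0.58 and 0.73 in DKD, and 0.41, 0.61, 0.47, 0.43 and 0.26 in Sham. The 3 groups overlapped. The difference of DKD+enarodustat and DKD was -0.28 ± 0.09 (adjusted p = 0.14, and -0.24 with adjusted p = 0.0207 in the authors' value table).

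Ppara differed by 0.47 ± 0.18 (adjusted p = 0.227), and Pex11a by 0.35 ± 0.15 (adjusted p = 0.289), both higher in DKD+enarodustat than in DKD on average and overlapping it. Ppara was 0.40 higher in the authors' value table (adjusted p = 0.0422), and 0.31 higher without DKD replicates 2 and 4 (adjusted p = 0.4). A second Ppara probe, above background on all 19 arrays as well, differed by 0.11 between DKD+enarodustat and DKD (adjusted p over probes 0.86), and the third by 0.41 (adjusted p over probes 0.561), so that the size depends on the probe. The lowest DKD array for Ppara was replicate 2, at -0.07. Cd36 differed by -0.32 ± 0.15 (adjusted p = 0.364), and by -0.83 in a fit with a term for slide row (adjusted p = 0.0252), which rests on DKD replicates 2 and 4, the arrays rich in adipocyte markers. Cd36 was 1.83 and 1.78 on these arrays and 0.87 to 1.31 on the other 5 DKD arrays, so that the -0.32 draws on them as well.

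In DKD+enarodustat against Sham, which shares its arrays with the other comparisons, 23 of 38 members rose and 2 fell (Acadm and Hsd17b4), that is 25 called of 38, against 26.1% of all genes, and groups did not overlap for 16 members, against 14.4% of all genes. The median difference was 0.53, against -0.04 over all genes. Creb3l3 and Fabp1 are counted in the 23, and Creb3l3 in the 16, although they entered the test through the diabetic arrays. Of the 36 members above background on every Sham array 21 rose and 2 fell, with a median of 0.495. Ppara passed the test here, while Cpt1a, Hadhb, Ehhadh and Eci2 missed it with adjusted p-values of 0.0504 to 0.0597; with slide as a block Hadhb, Ehhadh and Eci2 passed it (adjusted p 0.0357 to 0.0435) and 28 members were called, without Sham replicate 2 all 4 passed it (adjusted p 0.00468 to 0.024), and leaving out any 1 of DKD+enarodustat replicates 1, 2 and 4 and DKD replicates 2, 4 and 7 brought in at least 1 of them. Hsd17b4 differed by -0.36 ± 0.11 (adjusted p = 0.019, and 0.0531 without Sham replicate 2). Since every DKD+enarodustat array lay in slide row 2 and every Sham array in row 1, treatment and slide row cannot be told apart here. With the row as a covariate 5 members rose (Angptl4, Vnn1, Decr1, Creb3l3 and Ppara) and none fell. Of these Creb3l3 entered the test through the diabetic arrays, and the share of all genes called was not counted in that fit.

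**Figure D4:**
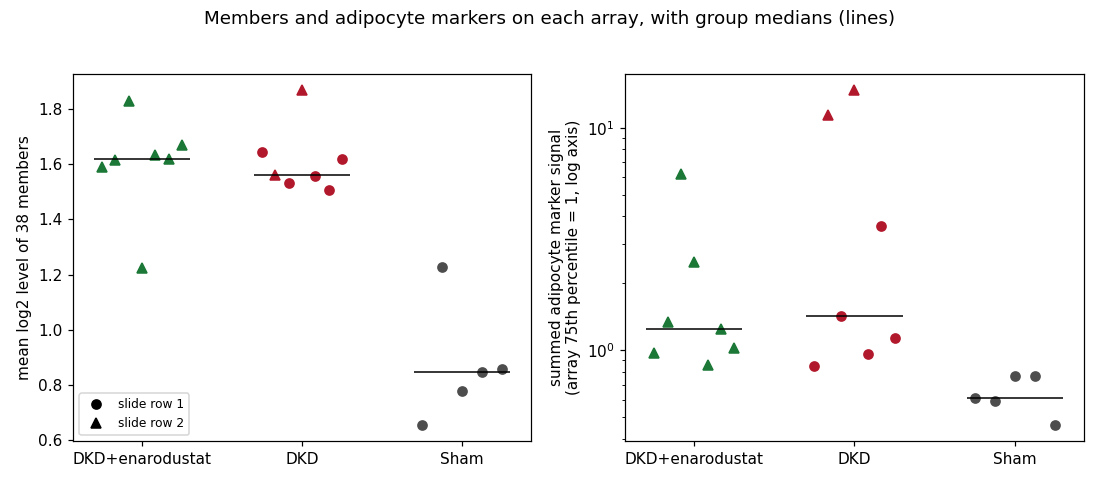
Mean log2 level of the 38 tested members on each array (left) and the summed signal of the adipocyte markers (right, log axis, array 75th percentile set to 1), with group medians as lines; circles lie in slide row 1 and triangles in row 2. The members' mean runs from 1.22 to 1.83 in DKD+enarodustat, 1.505 to 1.867 in DKD and 0.66 to 1.23 in Sham, and DKD replicates 2 and 4 have the highest adipocyte signals.

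Arrays of a group differed in a similar way across many members. Among the 26 members that rose in DKD against Sham, DKD+enarodustat replicate 4 was the lowest of its group for 20 and replicate 3 the highest for 15. DKD replicate 4 was the highest of its group for 18, and Sham replicate 2 for 22. DKD replicate 4 and DKD+enarodustat replicate 3 had the fewest probes well above background in their groups (54.7% and 54.4%). Their adipocyte signals were the highest of their groups (14.74 and 6.21), and any link to the members' levels was not tested. Averaged over the members, the level was 1.22 on DKD+enarodustat replicate 4 and 1.23 on Sham replicate 2.

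Further genes of the pathway were counted in 4 lists that leave out the members, beside which 8.02% of all genes rose and 9.06% fell in DKD against Sham. Of 28 other mitochondrial oxidation genes tested, 5 rose (17.9%) and none fell (median -0.03). In that comparison Pdk4, which blocks pyruvate dehydrogenase, rose by 2.78 ± 0.25 (adjusted p = 1.16e-06, its probe being above background on 1 Sham array), and Acad11, a long-chain dehydrogenase, by 0.80 ± 0.11 (adjusted p = 5e-05). Pdk4 entered the test through the diabetic arrays, so its p-value lends no support of its own. In DKD+enarodustat against DKD 2 of the 28 fell: Acad8, of valine breakdown, by 0.32 ± 0.06 (adjusted p = 0.0105), and Mut, methylmalonyl-CoA mutase, by 0.30 ± 0.07 (adjusted p = 0.041), where 0.933% of all genes fell.

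Of 38 other peroxisomal genes 9 rose (23.7%) and 2 fell (5.26%) in DKD against Sham. Ech1, a dienoyl-CoA isomerase, rose by 1.04 ± 0.13 (adjusted p = 4.07e-05), Acot5, a peroxisomal thioesterase, fell by 3.82 ± 0.55 (adjusted p = 0.000124), and Pex14, of the peroxisomal import machinery, rose by 0.34 ± 0.06 (adjusted p = 0.000415). Of 27 other genes of uptake, storage and lipolysis 10 rose (37.0%) and 2 fell (7.41%), with Cyp4a1, a fatty acid omega-hydroxylase, at 1.62 ± 0.20 (adjusted p = 2.27e-05), Acot7, a thioesterase, at 0.90 ± 0.10 (adjusted p = 1.28e-05) and Lpin2, a phosphatidate phosphatase, at 0.88 ± 0.14 (adjusted p = 0.000404).

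Of 27 other regulators 3 rose (11.1%) and 5 fell (18.5%), the first share being near that of all genes. Prkaa2, a catalytic subunit of AMP-activated kinase, fell by 0.54 ± 0.08 (adjusted p = 0.000222), Hnf4a, a nuclear receptor of tubule and liver, fell by 0.41 ± 0.08 (adjusted p = 0.00128), and Sirt3, a mitochondrial deacetylase, rose by 0.57 ± 0.11 (adjusted p = 0.00162). None of the other peroxisomal, uptake and regulator genes passed the test in DKD+enarodustat against DKD.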

How the data were processed

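The deposited scanner files give the Cy3 intensity of each spot. Per the file headers, Agilent Feature Extraction 11.5.1.1 subtracted the background, removed trends and put surrogate values at background to make the processed intensity. The authors also deposited a table of log2 values for 22739 probes, whose method is not given in the sources used here; limma is named in the submitters' processing notes. Each array held 62976 spots, 58717 of them not controls, covering 45598 probe names. Here log2 of the processed intensity minus the array's 75th percentile was used, outlier spots were left out, and spots of a probe were averaged (65 missing probe values, 0 saturated). Probes well above background on at least 5 of 19 arrays were kept (30259), and the brightest kept probe of a gene, by its mean, stood for it.

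All 3 groups entered 1 fit in limma 3.58.1 (lmFit and eBayes, R 4.3.3, no covariate, 16 residual degrees of freedom, two-sided, Benjamini-Hochberg over 24234 genes in a comparison). Precision is limited by the number of arrays, and those of 1 group correlated at 0.968 to 0.990. Rats are the replicates. The fit was tested on simulated data with known changes. Same-numbered arrays share a slide. Their deviations from the group means correlated at 0.13 to 0.59 (5 pairs of DKD and Sham), 0.14 to 0.47 (5 pairs of DKD+enarodustat and Sham) and 0.14 to 0.42 (7 pairs of DKD+enarodustat and DKD). Differently numbered arrays of 1 slide correlated too, as at 0.52 for DKD replicate 3 and Sham replicate 4. The main fit did not use the numbers as pairs, and the replicate number entered only as a block in an alternative. Alternatives were normexp with an offset of 50, quantile and median scaling, the authors' table, other filters, slide and row terms, the replicate block and leaving out arrays; the analysis of slide row 2 alone was added after seeing the data. The 39 members and all lists were chosen with earlier results of these data known. Every member is described; values in every array are given for the members with the smallest adjusted p (6 in DKD against Sham, 4 in DKD+enarodustat against DKD) and for Cpt1a, Ppara and Ppargc1a, with Acadm and Fabp1 singled out after their values were seen, and up to 3 genes are named for each other list, of which 1 is not reported here. Figures were drawn with matplotlib.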

Additional observations from a re-analysis of the deposited data

Results flagged for a closer look

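Of 114 sets of values (38 members in 3 groups), 10 had 1 array far from the others of its group by Dixon's 95% value, where chance gives about 1 in 20. In DKD+enarodustat, replicate 4 was lowest for Mlycd (1.46), Acot2 (1.37), Acot1 (-0.76) and Vnn1 (1.61), and replicate 3 was highest for Acadvl (2.04). In DKD, replicate 4 was highest for Cpt2 (1.14) and Creb3l3 (-2.46), and replicate 2 was lowest for Ppara (-0.068). In Sham, replicate 2 was highest for Decr1 (3.32) and Eci2 (2.36).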

How the results depend on the processing

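The number of members called in DKD against Sham was 27, and 21 to 27 under the alternatives that kept arrays of several slides, with 23 to 27 when 1 array was left out. Within slide 1 and within slide 2 limma called 0, and slide 3 held 1 Sham array, so that it gave no value. In DKD+enarodustat against DKD it was 0, and 0 to 0 when 1 array was left out, but 1 with normexp and quantile normalisation, 4 in the authors' value table and 1 with slide row as a covariate. In DKD+enarodustat against Sham it was 25, and 25 to 28 when 1 array was left out. It was 28 with slide as a block, 5 with slide row as a covariate and 0 within slide 1 and within slide 2 (16 and 10 at an unadjusted p under 0.05). The share of all genes called was not counted within slides or under any other alternative. At that unadjusted threshold it was 36.7% in the full fit. With the row as a covariate Cd36 was -0.079 in DKD+enarodustat against Sham (adjusted p = 0.878), against 0.65 without that term; this rests on the 2 DKD arrays of row 2, and the cause was not tested. The replicate block changed the calls of Eci2, Etfb and Cpt1a given above and no other; it gave 25, 0 and 26 members called in DKD against Sham, DKD+enarodustat against DKD and DKD+enarodustat against Sham. Of 3870 values of single members under an alternative, 3647 kept their side of the threshold and, where called, their direction, 189 lost the call, 33 gained it and 1 was reversed. Dim probes (Fabp1, Creb3l3) limit the size of the differences, and the small groups within slides limit the test there.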
